A study of Rattus norvegicus with 36 samples.

Results

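Lung expression of the inflammasome and interleukin-1 (IL-1) family genes was described in rats that received DQ-12, a crystalline silica dust used as a reference for fibrogenic particles. The 10 genes were Nlrp3, Pycard, Casp1, Il1a, Il1b, Il18, Il33, Il1rn, Il1r1, and Il1r2, chosen by name among the 25597 gene names on the array. All 10 were present, on 14 probes, and all 10 passed the filter on dim probes that left 23940 genes for the tests. Female Sprague Dawley rats, 13 weeks old, received 10 mg of DQ-12 by a single instillation into the trachea, or the vehicle alone, and the accessory lobe of the lung was taken 1, 30, or 180 days later (D1, D30, and D180). Each of the 6 groups (vehicle and DQ-12 at the 3 time points) held 6 rats, with 1 single-color Agilent array per rat. The dose was a bolus at 1 level in 1 sex, and 1 lobe stood for the lung.

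Cells of the innate immune system assemble an inflammasome when they sense damage, as after the uptake of crystals that injure the lysosome. The sensor NLRP3 recruits the adaptor ASC, encoded by Pycard, which gathers and activates caspase-1, and this protease cleaves the precursors of IL-1β and IL-18 and the pore-forming protein gasdermin D. IL-1α and IL-33 are alarmins that are active without this cleavage. Signals from IL-1 pass through the receptor IL1R1 and are limited by the receptor antagonist encoded by Il1rn and by the decoy receptor IL1R2, which binds IL-1 but does not signal. The arrays measured mRNA, so cleavage and release were not observed.

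The genes of both IL-1 inhibitors had the largest rises of the 10. Il1r2, the decoy receptor, rose at the 3 time points, by 7.87-fold at D1, 4.45-fold at D30, and 5.00-fold at D180. Il1rn, the antagonist, was 1.98-fold higher at D1, just short of the 2-fold threshold, and rose by 2.18-fold at D30 and 5.96-fold at D180. Il1b itself passed both thresholds at D180 only, with a 2.25-fold rise. Nlrp3 was 1.45- to 1.73-fold higher at the 3 time points by its brightest probe, with a D30 rise that did not pass in several other fits. Il1a never passed the test. Differentially expressed genes (DEGs) had to change by 2-fold or more (fold change, FC) and to have an adjusted p under 0.05 (limma, Benjamini–Hochberg over 23940 genes).

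By this rule, 1 of the 10 genes was a DEG at D1 (Il1r2), 2 at D30 (Il1r2 and Il1rn), and 3 at D180 (Il1r2, Il1rn, and Il1b), all higher after DQ-12. Over all genes, 2.02% were DEGs in the higher direction at D1, 0.915% at D30, and 2.86% at D180. With the adjusted p alone, 3 of the 10 genes were higher at D1 (background 7.58%), 4 at D30 (2.74%), and 7 at D180 (7.82%), and 1 was lower at D180, 8 in either direction (16.8%). The 10 genes had a median log2 FC of 0.17 at D1, 0.22 at D30, and 0.54 at D180, against -0.01, -0.02, and -0.03 over all genes. Every DQ-12 rat exceeded every vehicle rat for 3 of the 10 genes at D1 (5.25% of all genes), for 2 at D30 (1.81%), and for 4 at D180 (3.85%).

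**Figure D1:**
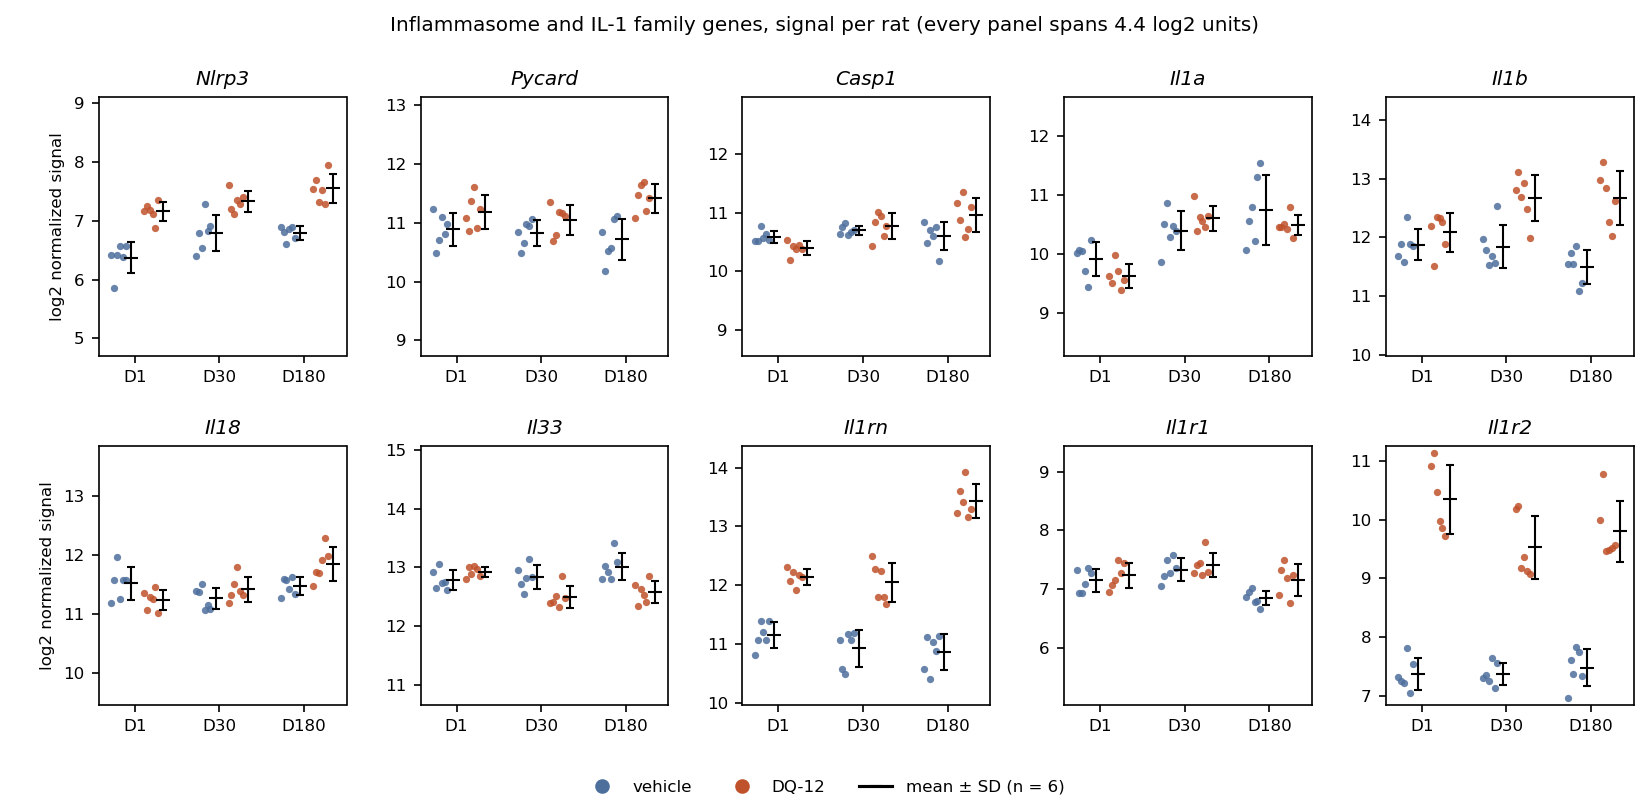
Normalized log2 signal (y axis) of the 10 genes in each rat at D1, D30, and D180 (x axis); blue points are vehicle rats, orange points are DQ-12 rats, and black marks are the mean ± SD of 6 rats. Il1r2 and Il1rn are the genes whose DQ-12 rats sit above every vehicle rat at each time point.

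The probe used for each of the 10 genes was well above background on all 36 arrays, so none of their values is a bound. An alveolar type 2 cell list, with surfactant genes, had a mean log2 signal of 15.36 to 16.04 over the arrays and was high in all groups, as in lung. A skeletal muscle list had means of 5.85 to 6.65 on all but 3 arrays and reached 9.72 in DQ-12 D1 replicate 5, 7.32 in DQ-12 D30 replicate 6, and 10.09 in vehicle D180 replicate 5. Without these 3 arrays, the same genes of the 10 were DEGs at each time point. Arrays were scanned on 11 dates and on 19 slides. At D1, 5 vehicle arrays were scanned on dates that held no DQ-12 array. Values within a date are therefore given beside the pooled ones for Il1r2, Il1rn, Il1b, and Nlrp3, and within a slide for Il1r2. For Il18, Casp1, and Il33, they are given at D1 only. These are bulk tissue samples, in which fewer cells of a type and less RNA per cell cannot be told apart.

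Nlrp3 encodes the sensor of the inflammasome. Its log2 signal in vehicle rats ran from 5.86 to 6.57 at D1 (median 6.42), and in DQ-12 rats from 6.88 to 7.36 (median 7.18). At D30, it ran from 6.40 to 7.29 in vehicle rats (median 6.81) and from 7.12 to 7.61 in DQ-12 rats (median 7.32), and at D180 from 6.61 to 6.90 (median 6.84) and from 7.28 to 7.95 (median 7.53). The groups did not overlap at D1 and D180, while at D30 only 3 of 6 DQ-12 rats exceeded every vehicle rat. The differences were 0.79 ± 0.13 (SE) on the log2 scale at D1 (limma, adjusted p = 5.35e-05), 0.54 ± 0.13 at D30 (limma, adjusted p = 0.0125), and 0.76 ± 0.13 at D180 (limma, adjusted p = 6.29e-05). None reached 2-fold with this probe, which was designed on a predicted transcript. The median over the 3 probes reached 2-fold at D180 (1.03, limma, adjusted p = 3.16e-05). At D30, that median was 0.30 and did not pass (limma, adjusted p = 0.423). With slide as a fixed block, the D180 difference did not pass (0.67, limma, adjusted p = 0.366). The D30 difference no longer passed without vehicle D30 replicate 1 (0.46, limma, adjusted p = 0.0516) or DQ-12 D30 replicate 1 (0.48, limma, adjusted p = 0.0502), or in a fit of D30 alone (limma, adjusted p = 0.0899). With scan date or slide as a fixed block, it did not pass either (0.47 each, limma, adjusted p = 0.135 each).

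Nlrp3 had 2 dimmer probes on the curated transcript that were well above background on 31 and 32 of the 36 arrays. Their differences were 0.61 and 0.50 at D1, 0.78 and 0.18 at D30, and 1.15 and 1.03 at D180, on the log2 scale. Only those at D180 passed in a fit over all probes (limma, adjusted p = 0.00103 and 0.00249). The 3 probes thus gave positive differences at each time point, and their size varied most at D30 and D180.

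Pycard, the adaptor gene, and Casp1, the protease gene, passed the adjusted p at D180 only, under 2-fold. The log2 signal of Pycard was 10.89 ± 0.27 (SD) in vehicle rats and 11.18 ± 0.29 in DQ-12 rats at D1, 10.83 ± 0.22 and 11.05 ± 0.25 at D30, and 10.72 ± 0.35 and 11.42 ± 0.24 at D180. The D180 difference of 0.70 ± 0.16 (1.62-fold) passed the adjusted p (limma, 0.00162), with 5 of 6 DQ-12 rats above every vehicle rat. With slide as a fixed block it did not pass (0.50, limma, adjusted p = 0.612), and no difference between time points passed for Pycard. Casp1 was 10.59 ± 0.10 in vehicle rats and 10.40 ± 0.12 in DQ-12 rats at D1, and 5 of 6 DQ-12 rats lay below every vehicle rat. This D1 difference of -0.19 ± 0.11 did not pass (limma, adjusted p = 0.265). At D180, Casp1 was 10.60 ± 0.24 in vehicle rats and 10.96 ± 0.29 in DQ-12 rats, a difference of 0.37 ± 0.11 that passed (limma, adjusted p = 0.0215). Fitted on the D180 arrays alone, the same 0.37 did not pass (limma, adjusted p = 0.176), nor did it without vehicle replicate 6 (0.28), DQ-12 replicate 1 (0.33), or DQ-12 replicate 3 (0.29), with adjusted p of 0.0797, 0.0599, and 0.0731 (limma).

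Il1b and Il1a encode the agonists of IL1R1. Il1b log2 signal ran from 11.58 to 12.35 (median 11.87) in vehicle rats and from 11.51 to 12.34 (median 12.23) in DQ-12 rats at D1, where the ranges almost coincided. At D30, the vehicle rats ran from 11.53 to 12.53 (median 11.74) and the DQ-12 rats from 11.99 to 13.11 (median 12.75). At D180, the vehicle rats ran from 11.09 to 11.86 (median 11.54) and the DQ-12 rats from 12.03 to 13.28 (median 12.73), with no overlap. The log2 difference was 0.21 ± 0.20 (SE) at D1 (limma, adjusted p = 0.537), 0.83 ± 0.20 or 1.77-fold at D30 (limma, adjusted p = 0.0148), and 1.17 ± 0.20 or 2.25-fold at D180 (limma, adjusted p = 7.46e-05). The D30 difference did not pass in a fit of D30 alone (limma, adjusted p = 0.0740) or without DQ-12 D30 replicate 2 (0.74, limma, adjusted p = 0.0516).

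Il1a, the alarmin agonist, was 9.92 ± 0.29 (SD) in vehicle rats and 9.62 ± 0.20 in DQ-12 rats at D1, 10.39 ± 0.33 and 10.60 ± 0.21 at D30, and 10.75 ± 0.59 and 10.48 ± 0.17 at D180. The differences of -0.29, 0.21, and -0.26 (SE 0.19 each) did not pass (limma, adjusted p = 0.320, 0.685, and 0.399). The vehicle rats at D180 were widely spread, from 10.06 to 11.55, and held all 6 DQ-12 rats within their range. The sign at D180 turned with scan date or slide as a fixed block (0.14 and 0.24, neither passing).

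The promoters of the 2 agonist genes and of the antagonist gene are shown because the 3 genes share a receptor but moved differently. Each is the 250 bases before the start of transcription in RefSeq (GRCr8), 5′ to 3′ on the gene's strand. Promoter windows were found for 9 of the 10 genes, and Il1r2 was the gene without one. The windows were searched on both strands for a kappaB motif, for AP-1 (TGANTCA), for C/EBP (TTGCNNAA), and for PU.1 (GAGGAAGT), which 3.54, 6.34, 9.22, and 2.04% of 33469 windows of this length held. Capitals mark a match. 
Il1b, chr3:137036582-137036831, minus strand: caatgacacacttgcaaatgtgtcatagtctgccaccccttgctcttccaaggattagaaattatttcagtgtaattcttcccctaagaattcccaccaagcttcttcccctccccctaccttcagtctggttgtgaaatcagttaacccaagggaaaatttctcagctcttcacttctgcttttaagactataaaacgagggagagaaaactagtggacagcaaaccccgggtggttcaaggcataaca
Il1a, chr3:136990018-136990267, minus strand: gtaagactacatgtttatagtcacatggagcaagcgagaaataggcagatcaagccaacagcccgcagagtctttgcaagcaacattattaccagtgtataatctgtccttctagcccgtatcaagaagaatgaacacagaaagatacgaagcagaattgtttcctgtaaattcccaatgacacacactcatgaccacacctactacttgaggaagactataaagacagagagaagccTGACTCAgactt
Il1rn, chr3:27520072-27520321, plus strand: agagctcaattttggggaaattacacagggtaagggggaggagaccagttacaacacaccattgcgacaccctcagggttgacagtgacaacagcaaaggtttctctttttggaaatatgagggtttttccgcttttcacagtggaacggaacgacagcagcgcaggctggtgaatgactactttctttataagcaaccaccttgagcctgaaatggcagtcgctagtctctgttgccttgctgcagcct
The Il1a window held 1 AP-1 match, 12 to 6 bases before the start, and the windows of Il1b and Il1rn held none of these letters. Elsewhere, the window of Il1r1 held 1 kappaB match 135 to 126 bases before the start, and 1 of the 2 windows of Il33 held 1 C/EBP match 92 to 85 bases before it. The windows of Nlrp3, Pycard, Casp1, and Il18 held none. A match is a run of letters and was not tested as a binding site. Sites with other letters or farther from the start were not searched for. A window without a match therefore does not show that a gene lacks such sites.

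Il18 and Il33 encode cytokines of the family with receptors of their own. IL-18 drives interferon-γ production by lymphocytes, and IL-33 is a nuclear alarmin of epithelial and stromal cells that acts on mast cells, group 2 innate lymphoid cells, and other ST2-bearing cells. Il18 log2 signal was 11.52 ± 0.28 (SD) in vehicle rats and 11.24 ± 0.17 in DQ-12 rats at D1, 11.27 ± 0.18 and 11.42 ± 0.22 at D30, and 11.47 ± 0.15 and 11.85 ± 0.29 at D180. It passed the adjusted p at D180 only, by 0.38 ± 0.13 (limma, 0.0414), with 5 of 6 DQ-12 rats above every vehicle rat. This difference no longer passed in several other fits, among them D180 alone (limma, adjusted p = 0.115) and one with a fixed block for scan date (0.33, limma, adjusted p = 0.129). It was lost also without vehicle D180 replicate 1, 4, or 6 (0.34, 0.37, and 0.35) and without DQ-12 D180 replicate 4, 5, or 6 (0.36, 0.29, and 0.35).

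Il33 moved the other way. Its log2 signal was 12.79 ± 0.17 in vehicle rats and 12.93 ± 0.09 in DQ-12 rats at D1, 12.84 ± 0.20 and 12.50 ± 0.19 at D30, and 13.02 ± 0.23 and 12.58 ± 0.19 at D180. The D180 difference of -0.43 ± 0.11 (1.35-fold lower) passed (limma, adjusted p = 0.00494), and that of -0.34 ± 0.11 at D30 did not (limma, adjusted p = 0.0804). At both times, 5 of 6 DQ-12 rats lay below every vehicle rat. The D30 difference passed without vehicle D30 replicate 3 (-0.40, limma, adjusted p = 0.0317) or DQ-12 D30 replicate 5 (-0.41, limma, adjusted p = 0.0178). With slide as a fixed block, which rests on 1 rat a group, the D180 difference was -0.10 (limma, adjusted p = 0.950), as a random block it passed (-0.42), and in a fit of D180 alone it missed narrowly (limma, adjusted p = 0.0541). Lists for alveolar type 1 and endothelial cells moved in the same direction at D180, with medians of -0.48 (6 of 6 genes lower by adjusted p) and -0.53 (5 of 6), where 16.8% of all genes passed in either direction. The alveolar type 1 list had means of 14.59 to 14.85 in vehicle rats and 13.97 to 14.22 in DQ-12 rats, and the endothelial list of 13.34 to 13.51 and 12.61 to 13.11. The alveolar type 2 list, also epithelial, moved the other way at D180, with a median of 0.31. On it, 4 of 8 genes were higher by adjusted p (7.82% of all genes) and 0 lower. The part of these cells in the Il33 result was not tested.

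Il1rn, the gene of the secreted antagonist that occupies IL1R1, had the largest D180 rise of the 10 genes. At D1, log2 signal ran from 10.81 to 11.39 in vehicle rats (median 11.14) and from 11.91 to 12.31 in DQ-12 rats (median 12.16). At D30, it ran from 10.48 to 11.18 (median 11.07) and from 11.68 to 12.50 (median 12.02), and at D180 from 10.41 to 11.14 (median 10.96) and from 13.16 to 13.92 (median 13.36). The groups did not overlap at any time, and the lowest of the 18 DQ-12 rats (11.68) was above the highest of the 18 vehicle rats (11.39). The differences were 0.98 ± 0.16 (SE) at D1 (limma, adjusted p = 3.89e-05), 1.13 ± 0.16 at D30 (limma, adjusted p = 1.92e-05), and 2.57 ± 0.16 at D180 (limma, adjusted p = 2.85e-13). The D1 difference reached 2-fold (1.03) without vehicle D1 replicate 3, vehicle D1 replicate 6, or DQ-12 D1 replicate 4, and with 75th percentile scaling (1.01). In order of group means, the 3 vehicle groups (10.86, 10.92, and 11.16) overlapped each other, DQ-12 at D30 and D1 (12.05 and 12.14) overlapped each other, and DQ-12 at D180 (13.43) stood above every other rat.

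Il1r2, the decoy receptor gene, had the largest rise of the 10 genes at D1 and D30. At D1, log2 signal ran from 7.05 to 7.82 in vehicle rats (median 7.29) and from 9.72 to 11.13 in DQ-12 rats (median 10.22). At D30, it ran from 7.14 to 7.64 (median 7.32) and from 9.07 to 10.24 (median 9.27), and at D180 from 6.97 to 7.84 (median 7.49) and from 9.46 to 10.77 (median 9.54). Each of the 18 DQ-12 rats exceeded each of the 18 vehicle rats, with a gap from 7.84 to 9.07. The spread was wider after DQ-12, with an SD of 0.52 to 0.59 against 0.19 to 0.32 in vehicle rats. The differences were 2.98 ± 0.24 (SE) at D1 (limma, adjusted p = 1.51e-10), 2.15 ± 0.24 at D30 (limma, adjusted p = 4.36e-07), and 2.32 ± 0.24 at D180 (limma, adjusted p = 1.84e-08). Among 23940 genes, Il1r2 had the 16th, 41st, and 114th largest rise at D1, D30, and D180. The 3 DQ-12 groups overlapped one another, as did the 3 vehicle groups.

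Il1r1, the signaling receptor gene, did not pass the test at any time point. Its log2 signal was 7.15 ± 0.19 (SD) in vehicle rats and 7.23 ± 0.21 in DQ-12 rats at D1, 7.33 ± 0.19 and 7.41 ± 0.21 at D30, and 6.85 ± 0.13 and 7.15 ± 0.27 at D180. The differences were 0.08, 0.08, and 0.30 (SE 0.12 each), and none passed (limma, adjusted p = 0.726, 0.873, and 0.0874), although 4 of 6 DQ-12 rats lay above every vehicle rat at D180. The probe used was designed on a predicted transcript, and 2 dimmer probes on the curated transcript gave differences of -0.26 and 0.38 at D1, 0.28 and 0.32 at D30, and 0.03 and -0.47 at D180, none of which passed (the last value rests on 5 DQ-12 rats, since 1 spot was an outlier). Without DQ-12 D180 replicate 5, the D180 difference of the brighter probe passed (0.38, limma, adjusted p = 0.0265). No direction is given for Il1r1, since the median over its probes was -0.26 at D180.

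**Figure D2:**
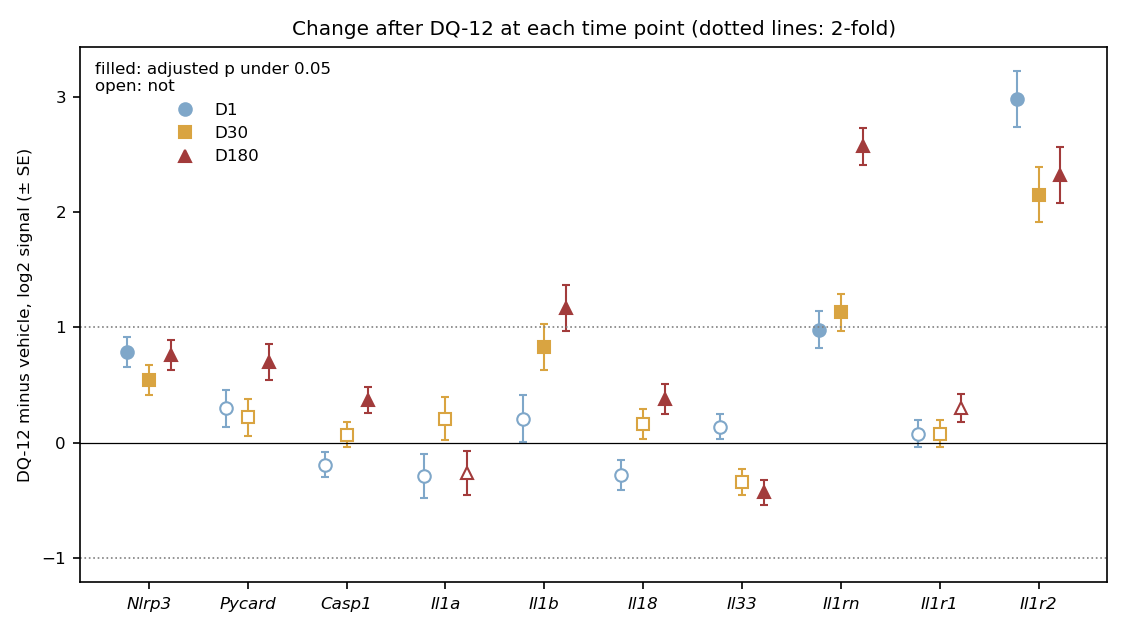
Difference in log2 signal, DQ-12 minus vehicle (y axis, ± SE of the limma fit), for the 10 genes (x axis) at D1 (circles), D30 (squares), and D180 (triangles); filled symbols have an adjusted p under 0.05. Il1r2 is above the 2-fold line at each time point, Il1rn rises to 2.57 at D180, and Il33 is below 0 at D30 and D180.

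Whether the change after DQ-12 differed between time points was tested in the same model as a difference of differences. From D30 to D180, only the change of Il1rn grew among the 10 genes, by 1.45 ± 0.22 on the log2 scale (limma, adjusted p = 0.00228), where 0.246% of all genes differed. From D1 to D180, 4 of the 10 genes differed, where 4.55% of all genes did. The change of Il1rn grew by 1.59 ± 0.22 (limma, adjusted p = 4.91e-05), that of Il18 by 0.66 ± 0.18 (limma, adjusted p = 0.0315), and that of Casp1 by 0.56 ± 0.16 (limma, adjusted p = 0.0372), while that of Il33 fell by 0.57 ± 0.16 (limma, adjusted p = 0.0291). Il1b, at 0.96 ± 0.29, narrowly missed (limma, adjusted p = 0.0508), and Il1r2, at -0.65 ± 0.35, did not pass (limma, adjusted p = 0.302). From D1 to D30, none of the 10 passed, where 2.18% of all genes did. Of the 10, 4 had an unadjusted limma p under 0.05 (Il33, Il18, Il1r2, and Il1b), for which no share of all genes was counted. With scan date as a fixed block, only the difference of Il1rn passed from D1 to D180 (1.82, limma, adjusted p = 0.0191), with it as a random block those of Il1rn, Casp1, and Il18 did, and without the 3 arrays with muscle signal, those of Il1rn and Il18 did. With slide as a fixed block, none of the 4 passed, and that of Il33 was 0.04. Without vehicle D1 replicate 5 or DQ-12 D1 replicate 2, 4, or 6, 2 of the 10 genes passed from D1 to D180, and without DQ-12 D30 replicate 5, 1 passed from D1 to D30.

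In vehicle rats, 1 of the 10 genes changed from D1 to D30 (6.53% of all genes), and 2 from D1 to D180 (10.6%). Nlrp3 was higher by 0.42 ± 0.13 at D30 (limma, adjusted p = 0.0467) and by 0.43 ± 0.13 at D180 (limma, adjusted p = 0.0316), and Il1a was higher by 0.83 ± 0.19 at D180 (limma, adjusted p = 0.00440). Vehicle rats of different time points shared no scan date, so time, age, and scan date cannot be told apart here. The rise of Nlrp3 at D30 was lost in most fits that left out 1 array, and 1 gene in place of 2 passed at D180 without vehicle D1 replicate 2, vehicle D180 replicate 1, or vehicle D180 replicate 5. The vehicle levels of Il1r2 moved by 0.00 and 0.11, within their SE of 0.24.

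Antagonist and agonist were also compared within each rat, as were decoy and signaling receptor, by an exact permutation test over the 462 ways to split 12 rats (2-sided, 6 tests). The level of such a difference depends on the probes, so only its change is read. The difference Il1rn minus Il1b was -0.72 ± 0.34 (SD) in vehicle rats and 0.05 ± 0.34 in DQ-12 rats at D1, a change of 0.77 (exact permutation, adjusted p = 0.00519). At D30, it was -0.92 ± 0.36 and -0.62 ± 0.25, a change of 0.30 that did not pass (exact permutation, adjusted p = 0.113), and at D180 -0.64 ± 0.41 and 0.77 ± 0.54, a change of 1.41 (exact permutation, adjusted p = 0.00325). Thus, the antagonist gained on the agonist at D1 and D180, with 5 and 6 of 6 DQ-12 rats above every vehicle rat, and only 2 of 6 at D30. Within the only scan date with both groups at D1, which held 1 vehicle rat, Il1rn differed by 0.74 and Il1b by 0.51, a smaller gain. Within the 2 such dates at D180, Il1rn differed by 2.73 and 2.04, and Il1b by 1.38 and 0.30. Scan date and slide were not in this test. The difference Il1r2 minus Il1r1 changed by 2.90 at D1, 2.08 at D30, and 2.02 at D180. Each time, 6 of 6 DQ-12 rats lay above every vehicle rat. Each p was the smallest that these splits allow (exact permutation, p = 0.00216, adjusted p = 0.00325 each). This outcome was fixed by Il1r2 alone. Its gap between all vehicle and all DQ-12 rats (7.84 to 9.07) was wider than the whole range of Il1r1 (6.67 to 7.80). The test therefore adds nothing to the rise of Il1r2.

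**Figure D3:**
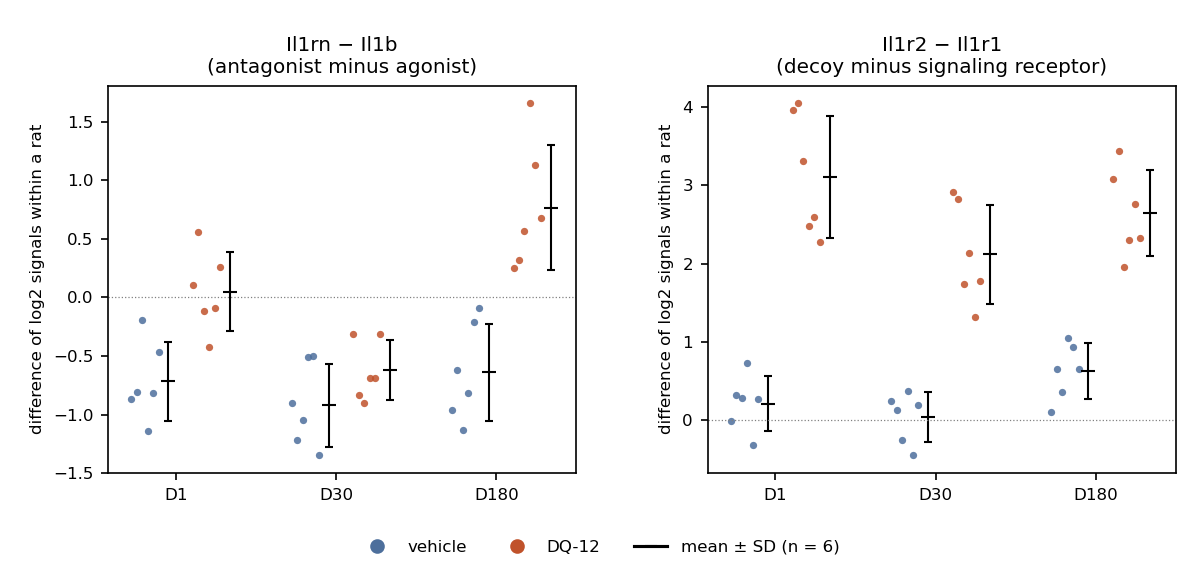
Difference of the log2 signals of 2 genes within each rat (y axis) at D1, D30, and D180 (x axis), Il1rn minus Il1b on the left and Il1r2 minus Il1r1 on the right; black marks are the mean ± SD of 6 vehicle (blue) or DQ-12 (orange) rats. The antagonist gained on the agonist by 0.77 at D1 and 1.41 at D180, while the 0.30 at D30 did not pass. The decoy gained on the signaling receptor by 2.02 to 2.90 at each time point, a separation that Il1r2 alone had fixed.

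Values within a scan date or a slide that held both groups of a time point are without a test, since some rest on 1 rat a group. For Il1r2, the log2 difference was 3.12 within the only such date at D1, 1.78 and 2.16 within the 2 dates at D30, and 2.68 and 1.90 within the 2 dates at D180, and 1.88 to 3.37 within the 5 such slides. For Il1rn, it was 0.74 at D1, 0.83 and 1.27 at D30, and 2.73 and 2.04 at D180 within dates. For Il1b, it was 0.51, 0.53 and 1.10, and 1.38 and 0.30, and for Nlrp3 it was 0.75, 0.56 and 0.42, and 0.73 and 0.48. Every one of the differences above had the direction of the pooled value. Within the only such date at D1, Il18 differed by -0.73 and Casp1 by -0.38, against -0.28 and -0.19 pooled. Il33 differed by -0.14 there, against 0.14 pooled. With scan date as a fixed block, which leaves 1 vehicle array in the D1 comparison, the D1 differences of Il1rn (0.74) and Nlrp3 (0.75) no longer passed (limma, adjusted p = 0.291 and 0.158), and Il1r2 stayed a DEG at D1. With slide as a fixed block, where the D180 comparison rests on 1 rat a group, Il1rn alone stayed a DEG at D180 (2.18, limma, adjusted p = 0.00506), while Il1r2 (2.15, limma, adjusted p = 0.0702) and Il1b (1.12, limma, adjusted p = 0.264) did not.

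A list of other genes of the pathway ran from sensors to the signaling chain behind the receptor. Of 52 listed genes, 49 were tested; Naip6 and Naip2 were not found under these names and Il36a did not pass the filter. At D1, 2 of the 49 were DEGs, both lower (3.07% of all genes were DEGs, and 1.05% in the lower direction). By adjusted p alone, 3 were higher (7.58%) and 3 were lower, the 2 DEGs among them. No share of all genes is given for the lower direction by adjusted p. At D30, limma called 0 of the 49 (1.05% of all genes), while 4 passed the adjusted p alone, all higher (2.74% of all genes in that direction). These were Casp4, Nfkbiz, Serpinb1a, and Zc3h12a. Of the 49, 15 had an unadjusted p under 0.05, for which no share of all genes was counted. At D180, 6 of the 49 were DEGs, all higher (2.86% of all genes in that direction), and 16 were higher by adjusted p alone (7.82%) and none lower. The 49 had a median log2 FC of 0.10 at D1, 0.05 at D30, and 0.26 at D180.

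The 2 DEGs that fell at D1 were Txnip and Nlrp6. Txnip, which encodes a thioredoxin-binding protein, went from 13.14 ± 0.31 (SD) to 12.03 ± 0.64, a log2 change of -1.11 ± 0.25 (SE; limma, adjusted p = 0.00192). Nlrp6, a gene of the NLR sensor family, fell from 4.89 ± 1.43 in vehicle rats to near background in DQ-12 rats (limma, adjusted p = 0.00693). It was well above background in 5 vehicle rats but in only 1 DQ-12 rat at D1, so the size of the fall was not measured, and 3 of 6 DQ-12 rats lay below every vehicle rat. Nlrp6 was no DEG with normexp, median signal, a filter on probes well above background, the median of probes, or each time point alone. It was none with scan date or slide as a random block either. Txnip stayed a DEG in these settings and was lost with array weights, where Nlrp6 stayed. Neither was a DEG with scan date or slide as a fixed block, and only 1 of them was without DQ-12 D1 replicate 2 or 6.

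At D180, the DEGs included 2 further inflammasome sensors, Nlrc4, which responds to bacterial proteins through NAIP partners, and Nlrp1b. Nlrc4 rose by 1.24 ± 0.21 (limma, adjusted p = 4.65e-05) and was well above background in 4 vehicle rats and 5 DQ-12 rats. Nlrp1b rose by 1.17 ± 0.36 (limma, adjusted p = 0.0226), was well above background in only 2 vehicle rats, and had overlapping groups. Nlrp1b was no DEG in several other settings, among them 75th percentile scaling, the deposited values, array weights, and scan date or slide as a fixed block. Nlrc4 was none with normexp, median signal, the median of probes, or slide as a fixed block. Pstpip1, whose protein binds the sensor pyrin, rose by 1.24 ± 0.19 (limma, adjusted p = 1.11e-05), and Card9, an adaptor behind C-type lectin receptors, by 1.10 ± 0.19 (limma, adjusted p = 7.83e-05).

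The other two D180 DEGs act against cytokines. Il18bp, the gene of the secreted IL-18-binding protein, went from 8.10 ± 0.43 (SD) to 9.27 ± 0.22, a rise of 1.17 ± 0.16 (limma, adjusted p = 1.30e-06) with no overlap between the groups. From D1 to D180, the change of Il18bp (0.84, limma, adjusted p = 0.0227) and that of Zc3h12a (0.89, limma, adjusted p = 0.0236) grew, while those of the other 4 DEGs did not pass. The difference of Il18bp was 0.33 ± 0.16 at D1 and -0.06 ± 0.16 at D30. Zc3h12a, which encodes an RNase that degrades cytokine mRNAs, rose by 1.29 ± 0.17 at D180 (limma, adjusted p = 6.67e-07) and was 0.92 ± 0.17 higher at D30 (limma, adjusted p = 6.03e-04), again with no overlap. With normexp background correction, Il18bp alone of the 6 stayed a DEG, and with slide as a fixed block, Il18bp and Zc3h12a did.

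**Figure D4:**
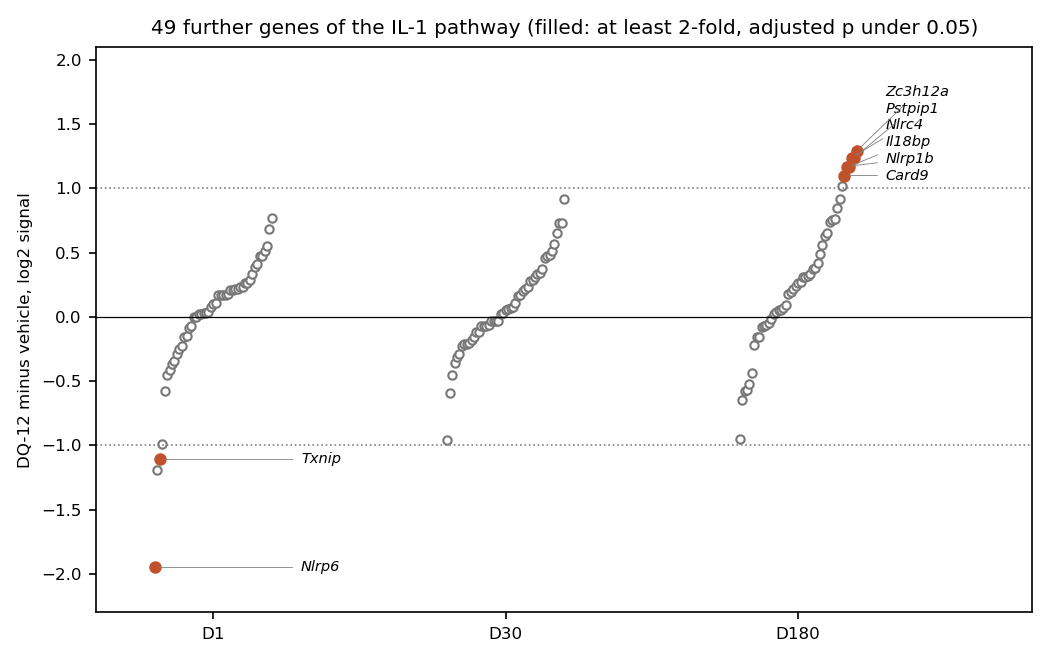
Difference in log2 signal, DQ-12 minus vehicle (y axis), of 49 further pathway genes at D1, D30, and D180 (x axis), each point 1 gene in order of its value; filled points are DEGs. Txnip and Nlrp6 lie below the 2-fold line at D1, no gene is filled at D30, and 6 genes are filled at D180, between 1.10 and 1.29.

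Lists of neutrophil genes and of monocyte and macrophage genes were described beside the pathway. On the neutrophil list, 2, 2, and 5 of 12 genes were DEGs at D1, D30, and D180, all higher (2.02, 0.915, and 2.86% of all genes), with medians of 0.39, 0.15, and 0.83. The mean log2 signal of the list was 6.40 to 6.89 in vehicle rats and 7.16 to 7.76 in DQ-12 rats at D1. It was 6.52 to 7.26 and 6.95 to 7.62 at D30, and 6.49 to 7.11 and 7.54 to 8.21 at D180. A gene with a large and variable change, such as Lcn2 below, moves this mean strongly. Its granule genes Elane and Ltf were not well above background on any array. Lcn2, a lipocalin gene that epithelium also uses, had the largest values, at 4.61 ± 1.27 at D1 and 4.69 ± 1.27 at D180, both DEGs, and 1.74 ± 1.27 at D30, which did not pass (limma, adjusted p = 0.0108, 0.00802, and 0.577). S100a9, the gene of a calcium-binding protein of neutrophils and monocytes, rose by 1.93 ± 0.25 at D30 and 2.57 ± 0.25 at D180. Mpo, the myeloperoxidase gene, did not pass at D1 (limma, adjusted p = 0.0540). It was well above background in 0 vehicle rats and 2 DQ-12 rats there. Its group means differed by at least 1.33-fold, a bound that makes no allowance for their error. Fpr1, a formyl peptide receptor gene on the same list, was lower by adjusted p at D30 (-0.95 ± 0.19, limma, adjusted p = 0.00242) and at D180 (-0.57 ± 0.19, limma, adjusted p = 0.0365).

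On the monocyte and macrophage list, 0, 4, and 6 of 12 genes were DEGs, all higher (2.02, 0.915, and 2.86% of all genes). By adjusted p alone, 6, 7, and 8 were higher (7.58, 2.74, and 7.82% of all genes). At each time, 8 had an unadjusted p under 0.05, for which no share of all genes was counted. The list had medians of 0.50, 0.61, and 1.05. Its mean log2 signal was 9.24 to 9.49 in vehicle rats and 9.64 to 9.85 in DQ-12 rats at D1, 9.02 to 9.23 and 9.54 to 10.19 at D30, and 9.32 to 9.78 and 10.39 to 10.66 at D180, with no overlap at any time. Marco, a scavenger receptor gene, rose at least 1.96-fold at D30, where no vehicle rat was well above background, and by 2.62 ± 0.36 at D180, where 2 vehicle rats were. Siglec1, a macrophage adhesion receptor gene, rose by 2.04 ± 0.24 at D30 (limma, adjusted p = 1.14e-06), and Itgam, an integrin gene of myeloid cells, by 2.19 ± 0.27 at D180 after 0.96 ± 0.27 at D1. Msr1, another scavenger receptor gene, was 0.90 ± 0.16 higher at D1 (limma, adjusted p = 2.07e-04). The part of these cells in the rises of Il1r2, Il1rn, Il1b, and Nlrp3 was not tested.

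**Figure D5:**
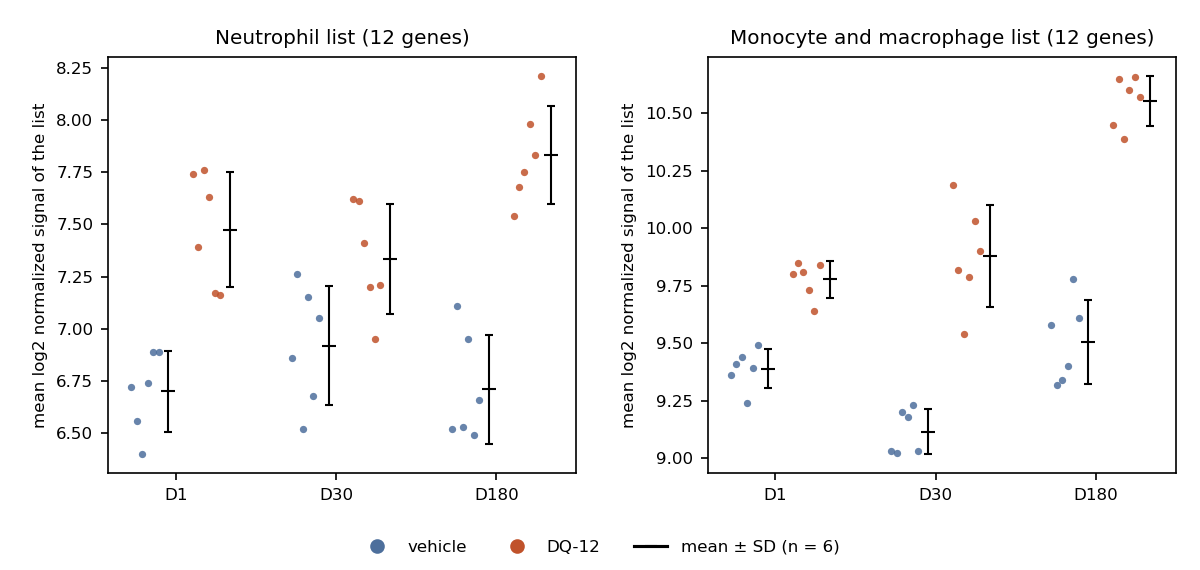
Mean log2 signal of the 12 neutrophil genes (left) and the 12 monocyte and macrophage genes (right) in each rat (y axis) at D1, D30, and D180 (x axis); blue points are vehicle rats, orange points are DQ-12 rats, and black marks are the mean ± SD of 6 rats. The DQ-12 rats are above every vehicle rat at each time point on the right and at D1 and D180 on the left.

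The likeness of other genes to each of the 10 was measured by Pearson's r over the 36 arrays, a description in which the points share their groups and arrays. Il1rn was most like Capg (0.95), Pla2g7 (0.95), and Ifi30 (0.94), genes of an actin-capping protein, a phospholipase, and a lysosomal reductase. Il1r2 was most like Fcar (0.96), an Fc receptor gene of myeloid cells, Nipsnap3b (0.93), and Slc26a4 (0.92), an anion exchanger gene. Il1b was closest to Bcl3 (0.88), RGD1565410 (0.83), and Myd88 (0.81), and Nlrp3 to Tmem181 (0.90), Bak1 (0.89), and Vmp1 (0.87). For Pycard the nearest were Lst1 (0.81), Lyl1 (0.78), and Sp100 (0.76), and for Casp1 Lap3 (0.84), LOC100912658 (0.83), and Gbp4 (0.82), a guanylate-binding protein gene. Il1a was closest to Zfp276 (0.87), Clp1 (0.86), and Arl5b (0.82), Il18 to Itgb2 (0.78), Cd36 (0.75), and Ttc7a (0.73), Il33 to Myl9, Spata2, and Jup (0.78, 0.78, and 0.77), and Il1r1 to Ttc39b, LOC100362783, and Arrdc1 (0.75, 0.75, and 0.74).

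Among the 10 genes themselves, Il1rn and Il1r2 had the highest r over the 36 arrays (0.80), followed by Nlrp3 with Il1rn (0.77) and with Il1r2 (0.76). Once the group means were removed, these values were 0.42, 0.28, and 0.31. Over the arrays, Il1b and Il33 had the lowest r (-0.65), which was -0.27 within groups, where Nlrp3 and Il18 had the lowest (-0.37).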

How the data were processed

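Total RNA of the lung accessory lobe was labeled with Cy3, hybridized to Agilent rat arrays and read with Feature Extraction (version 12.0.1.1 in the submitters' processing notes). The background-corrected intensity of each spot was deposited by the authors per array. The deposited log2 values of the same arrays were found to equal the log2 intensity less each array's 75th percentile, centered per probe, and served as an alternative. The authors' own analysis corrected for a batch that is not named in the sources used here.

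From the intensities, 232 to 596 outlier spots per array were left out (0 were saturated), spots of a probe were averaged (45598 probes), probes above the 95th percentile of 308 negative control spots on at least 6 arrays were kept, and log2 values were quantile normalized. The brightest probe stood for a gene. A model with 6 group means over 36 arrays was fitted with limma (version 3.58.1, R 4.3.3), with moderated tests, 2-sided, and Benjamini–Hochberg adjustment over 23940 genes. Array number limits the precision. Scripts were tested on simulated data.

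The 10 genes, the pathway list, and the marker lists were chosen with earlier results of these data known. Named were all 10 genes, pathway DEGs, the 3 genes most like each of the 10, and the 2 largest changes per time point on the neutrophil and macrophage lists; Elane and Ltf were added for their background level, Fpr1 for its direction, and 4 pathway genes at D30 for their adjusted p. Alternatives covered background correction, scaling, filters, probe choice, thresholds, moderation, array weights, scan date and slide as blocks, replicate number as a block, and leaving out each array. The block within each time point and the omission of 3 arrays with muscle signal were chosen after seeing the data.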

Additional observations from a re-analysis of the deposited data

Results flagged for a closer look

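Of 60 groups of 6 rats (10 genes in 6 groups), 3 held a rat that stood apart from the others by Dixon's test, where chance gives about 1 in 20. Nlrp3 in vehicle D1 replicate 2 was 5.86 on the log2 scale, against 6.39 to 6.57 in the others. Both other cases were in the same rat, DQ-12 D30 replicate 5, where Il33 was 12.85 against 12.32 to 12.51 and Il1r1 was 7.80 against 7.24 to 7.44.

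The response to DQ-12 differed between time points by the interaction test for Il1rn (1.45 from D30 to D180 and 1.59 from D1 to D180, log2), Casp1 (0.56), Il18 (0.66), and Il33 (-0.57), the last 3 from D1 to D180. The differences of Il1rn passed in 17 of 18 other settings each and in all 36 fits that left out 1 array. Those of Casp1, Il18, and Il33 passed in 13, 14, and 12 of the 18, and in 26, 30, and 30 of the 36.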

How the results depend on the processing

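The count of DEGs among the 10 genes at D1 (1) was 2 with 75th percentile scaling, the deposited values, or array weights, 3 at 1.5-fold, and 3 by adjusted p alone. At D30 (2) it was 4 by adjusted p alone. At D180 (3) it was 1 with slide as a fixed block, 4 with the median of probes (Nlrp3 added), 5 at 1.5-fold, and 8 by adjusted p alone. Leaving out 1 array gave 1 to 2, 2 to 2, and 3 to 3. Of the pathway genes, the D1 count (2) was 1 with normexp, median signal without background correction, probes well above background, the median of probes, each time point alone, or scan date or slide as a random block, 0 with either as a fixed block, 4 at 1.5-fold, and 6 by adjusted p alone (1 to 2 without 1 array). The D30 count (0) was 1 (Zc3h12a) with scan date or slide as a fixed or random block, 3 at 1.5-fold, and 4 by adjusted p alone (0 to 0 without 1 array). The D180 count (6) was 1 with normexp, 3 with median signal, 2 with slide as a fixed block, 13 at 1.5-fold, and 16 by adjusted p alone (5 to 7 without 1 array). Of differences between time points, the D30 minus D1 count (0) was 1 with array weights, the D180 minus D30 count (1) was 0 with slide fixed, and the D180 minus D1 count (4) was 1 with scan date fixed, 0 with slide fixed, and 2 without the 3 arrays with muscle signal. Without 1 array, these were 0 to 1, 1 to 1, and 2 to 5. In vehicle rats, the D30 count (1) was 0 with 75th percentile scaling, median signal, probes well above background, the deposited values, the median of probes, trend and robust moderation, or either random block, and 2 with array weights (0 to 1 without 1 array), and the D180 count (2) was 1 with normexp, median signal, the median of probes, either random block, or without the 3 muscle arrays (1 to 2). Of the single-gene differences, Il33 at D1 turned from 0.14 to -0.14 with scan date or slide fixed, Il1a at D180 from -0.26 to 0.14 and 0.24, Il1r1 at D180 from 0.30 to -0.26 with the median of probes, and Il1r1 at D30 (0.08) to -0.00 without DQ-12 D30 replicate 5 (range -0.00 to 0.13 without 1 array), none of which passed. The within-rat differences kept their side of the threshold in the 7 other settings in which they were run and without each array. They were not run with scan date or slide as a block. The cause of these shifts was not tested, except that a fixed block leaves 1 vehicle array at D1 and 1 rat a group per slide at D180.

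Replicate number as a block over all time points left the counts of DEGs among the 10 genes at 1, 2, and 3. Of the 6 same-numbered pairs at each time, 1, 2, and 3 correlated above 0.1, with r from -0.13 to 0.22. Pairs of unlike number were not compared, so these values cannot tell whether the numbers pair the rats. With a replicate block within each time point, 1 of the 4 differences from D1 to D180 passed, that of Il1rn.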

Other observations

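Of the cell type lists not described above, the mast cell list moved most at D180, with a median log2 difference of 0.92, 1 of 6 genes a DEG in the higher direction, 4 higher by adjusted p alone, and 1 lower (2.86% of all genes were DEGs in the higher direction, and 7.82% higher by adjusted p). Its mean log2 signal ran from 7.65 to 8.90 in vehicle rats and from 8.43 to 9.47 in DQ-12 rats, with 4 of 6 DQ-12 rats above every vehicle rat. The airway secretory list of 3 genes had medians of -0.41, -0.42, and -0.25 at D1, D30, and D180. It held 1 DEG, lower, at D1, where 1.05% of all genes were DEGs in that direction. The T cell list had medians of -0.13, 0.00, and 0.19, and the B cell list of -0.29, -0.40, and 0.02. Those of the ciliated cell list were -0.06, -0.33, and -0.07, and those of the fibroblast list 0.06, -0.03, and -0.08. On the fibroblast list, 1 of 6 genes was a DEG, higher at D1 (2.02% of all genes in that direction).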
